A study of Mus musculus with 13 samples.

Results

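The genes described are 38 protein-coding Hox genes of the mouse, taken by symbol from the 27998 genes that every matrix lists. They were followed in 80741 barcodes of at least 2000 UMIs from 10 matrices of droplet-based single-cell RNA sequencing. A barcode stands for one droplet and, in most cases, one cell, and a unique molecular identifier (UMI) marks one captured transcript, so that PCR copies are counted once. Of the 38 members, 10 lie in HoxA on chromosome 6, 10 in HoxB on chromosome 11, 9 in HoxC on chromosome 15 and 9 in HoxD on chromosome 2. On GRCm38 the members of HoxA span chr6:52162417-52260880 on the minus strand, and on the plus strand those of HoxB span chr11:96194316-96368256, those of HoxC chr15:102921103-103036852 and those of HoxD chr2:74668310-74765142.

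Hox genes encode homeodomain transcription factors that give cells along the body axis their positional identity. The genes of a cluster are numbered from its 3′ end, and members with the same number in different clusters are paralogues. Low numbers are switched on early and reach far to the front, in the hindbrain and the tissues beside it, whereas high numbers are switched on later and towards the tail. Hox proteins bind DNA with the TALE cofactors Pbx, Meis and Pknox, retinoic acid and Cdx factors act upstream of the clusters, and Polycomb and Trithorax proteins keep the silent and active states.

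All animals were wild-type C57Bl/6J mice. The samples were whole embryos at E8.5 and E10.5, from which head and limbs had been cut off, and hearts of 3 embryonic stages (E12.5, E14.5 and E16.5) and of postnatal pups (P3). E10.5, E12.5, E14.5 and E16.5 had 2 libraries each. E8.5 had 1 matrix (replicate 2, with replicate 1 not analysed here) and P3 had 1 matrix that pools 2 records, so neither entered a test, and the matrix of E16.5 replicate 1 was itself made from 2 records. The labels do not say how many animals a library pools, so p-values measure the spread between libraries, which may be technical. Libraries held 67141166 to 259041468 UMIs and 4928 to 14675 barcodes of at least 2000 UMIs, and replicates differed by more than sampling noise, at 6.67 to 43.9 chi-square units per degree of freedom.

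In the embryos 4 classes were gated on genes that are not Hox genes. Neural barcodes carried at least 2 UMIs of Sox2, crest barcodes at least 2 of the neural crest factor Sox10, lateral barcodes at least 2 of Hand1 of the lateral mesoderm, and somite barcodes at least 1 UMI each of Meox1 and Tcf15. Barcodes passing several gates were left out, and no doublet caller was run. This took 53 of 245 barcodes of the crest gate at E8.5 and 134 of 310 and 161 of 375 at E10.5. At E10.5, 126 and 147 barcodes passed both the Sox10 and the Sox2 gate. The neural gate lost 86 of 1586, 297 of 4419 and 313 of 4236, so crest was cut more, and more so at E10.5. The gates held 1500 neural, 508 somite, 192 crest and 304 lateral barcodes at E8.5. At E10.5 they held 4122 and 3923, 1437 and 1411, 176 and 214, and 354 and 383 in replicates 1 and 2. The 6 check markers of each class were all detected in it, with a summed level of 237 to 354 CPM at E8.5 and 316 to 611 at E10.5, where CPM counts the UMIs of a gene or list per 1000000 UMIs of all barcodes of a class. Detection alone does not set the classes apart, since neural and somite barcodes held all markers of the other lists too. Each list was highest in its own class among the 4 in every library, but the neural list still summed to 112 and 129 CPM in somite barcodes at E10.5.

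The neural and lateral gates were less uniform than their names. Although the labels state that heads were removed, Otx2, a factor of the forebrain and midbrain, had at least 2 UMIs in 25.5% of neural barcodes at E8.5 and in 17.7 and 19.1% at E10.5. Those barcodes held 44.8 CPM of Hox UMIs at E8.5 and 83.1 and 92.1 at E10.5, against 594, 902 and 942 in neural barcodes without an Otx2 UMI. The neural contrasts below are therefore also given without barcodes that carry any UMI of a short list of anterior neural and epithelial markers, which includes Otx2, Six3 and Epcam. Such barcodes are called marked, and 868 of 1500 neural barcodes at E8.5 and 2429 of 4122 and 2261 of 3923 at E10.5 were not marked. The marker genes are not all anterior, since neural barcodes with at least 2 UMIs of the epithelial gene Epcam held 241 CPM of Hox UMIs at E8.5 and 309 and 343 at E10.5. In the lateral gate, the 56 barcodes with at least 10 UMIs of 6 myocardial genes held 267 CPM of Hox UMIs at E8.5, against 1016 in the other 248. At E10.5 40 and 41 such barcodes held 252 and 190, against 768 and 760 in the other 314 and 342. Epithelial check markers summed to 631 CPM in lateral barcodes at E8.5 and 299.9 and 413 at E10.5, beside 191, 98.6 and 97.5 over all barcodes, and most of these UMIs came from the keratins Krt8 and Krt18, with Epcam at 13.1, 5.66 and 10.46 CPM. The lateral contrasts below are therefore also given without the myocardial barcodes, and without barcodes that carry a UMI of Epcam or Cdh1. The second filter left 266 lateral barcodes at E8.5 and 330 and 347 at E10.5, with 848, 709.6 and 708 CPM of Hox UMIs.

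Promoter sequence is shown for 3 members on which the class comparisons turn, namely Hoxb8, which was highest in crest at E10.5, Hoxd4, which was lowest in lateral cells at E10.5, and Hoxd9, which was highest there. RefSeq tables for GRCm38.p6 held a promoter for 22 of the 38 members, in 24 windows. Each sequence gives the 250 bases before the gene start of those tables on the plus strand, 5′ to 3′, and capitals mark the Cdx-type motifs TTTATG and TTTACG on either strand. The windows are chr11:96281655-96281904, chr2:74721728-74721977 and chr2:74697513-74697762. In the annotation that gave the cluster spans, Hoxb8 begins at 96281905, just after its window. There Hoxd4 begins at 74711929, before its window, and Hoxd9 at 74697727, within its window, so those starts differ.
Hoxb8: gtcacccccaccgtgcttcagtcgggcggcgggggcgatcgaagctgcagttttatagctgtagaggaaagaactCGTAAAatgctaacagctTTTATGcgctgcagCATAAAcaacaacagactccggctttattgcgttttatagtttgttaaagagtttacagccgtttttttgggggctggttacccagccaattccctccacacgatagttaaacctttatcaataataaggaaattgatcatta
Hoxd4: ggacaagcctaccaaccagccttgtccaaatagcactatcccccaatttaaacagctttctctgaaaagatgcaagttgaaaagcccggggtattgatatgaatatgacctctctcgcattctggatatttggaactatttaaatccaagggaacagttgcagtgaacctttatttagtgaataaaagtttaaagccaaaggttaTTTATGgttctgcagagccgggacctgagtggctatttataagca
Hoxd9: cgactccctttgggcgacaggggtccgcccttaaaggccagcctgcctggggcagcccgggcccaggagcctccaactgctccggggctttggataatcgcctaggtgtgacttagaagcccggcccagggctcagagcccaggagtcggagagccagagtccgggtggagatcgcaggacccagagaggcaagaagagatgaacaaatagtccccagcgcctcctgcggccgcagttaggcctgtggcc
The Hoxb8 window held 3 motifs, which begin 175, 157 and 143 bases before the start, the Hoxd4 window held 1, and the Hoxd9 window none. TTTATG stood in 5 of the 24 member windows (those of Hoxb8, Hoxd4, Hoxd3, Hoxa7 and Hoxd11) and in 10.8% of 32851 windows of all genes. TTTACG stood in 1 member window and in 2.61% of all. Such a match is a description of the letters and not a binding site. No promoter entry was found for Hoxa4, Hoxb2, Hoxb3, Hoxb5, Hoxb6, Hoxb7, Hoxb9, Hoxb13, Hoxc5, Hoxc6 and Hoxc8 to Hoxc13.

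Levels are given in CPM. The tags count transcript ends, so levels were not divided by gene length. Some annotated spans overlap on the same strand, namely Hoxd3 with Hoxd4, Hoxa3 with Hoxa4 to Hoxa6, and Hoxc5 with Hoxc6 and Hoxc8 to Hoxc10. Hoxa2 to Hoxa6 also overlap the counted gene Gm28308, and Hoxd3 and Hoxd4 overlap Gm28230. The counts of all these members are uncertain for that reason. In such sums, fewer expressing cells and less RNA per cell cannot be told apart. At E8.5 Hox genes together held 859 CPM in lateral, 497 in somite, 403 in neural and 144 in crest barcodes. At E10.5 they held 828 and 804 in somite, 715 and 757 in crest, 700 and 693 in lateral, and 658 and 666 in neural barcodes. As gated, the crest sum stood lowest at E8.5 but not at E10.5. The neural sum was 639 at E8.5 and 1045 and 1079 at E10.5 once marked barcodes were left out. The lateral sum was 768 and 760 at E10.5 without myocardial barcodes. Under both filters crest stood lowest at E10.5 as well, in replicate 2 within the counting interval of the lateral sum. Without Epcam or Cdh1 barcodes instead, the lateral sums given above lay below crest in both libraries, close to it in replicate 1. Crest and somite barcodes were not filtered in this way, so the order depended on the filters. Erythroid barcodes, which should lack Hox transcripts, held 22.9 at E8.5 and 71.1 and 91.9 at E10.5, and barcodes of at most 100 UMIs, a measure of free RNA, held 366 and then 574 and 562. The part of free RNA in the values per class was not tested.

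**Figure D1:**
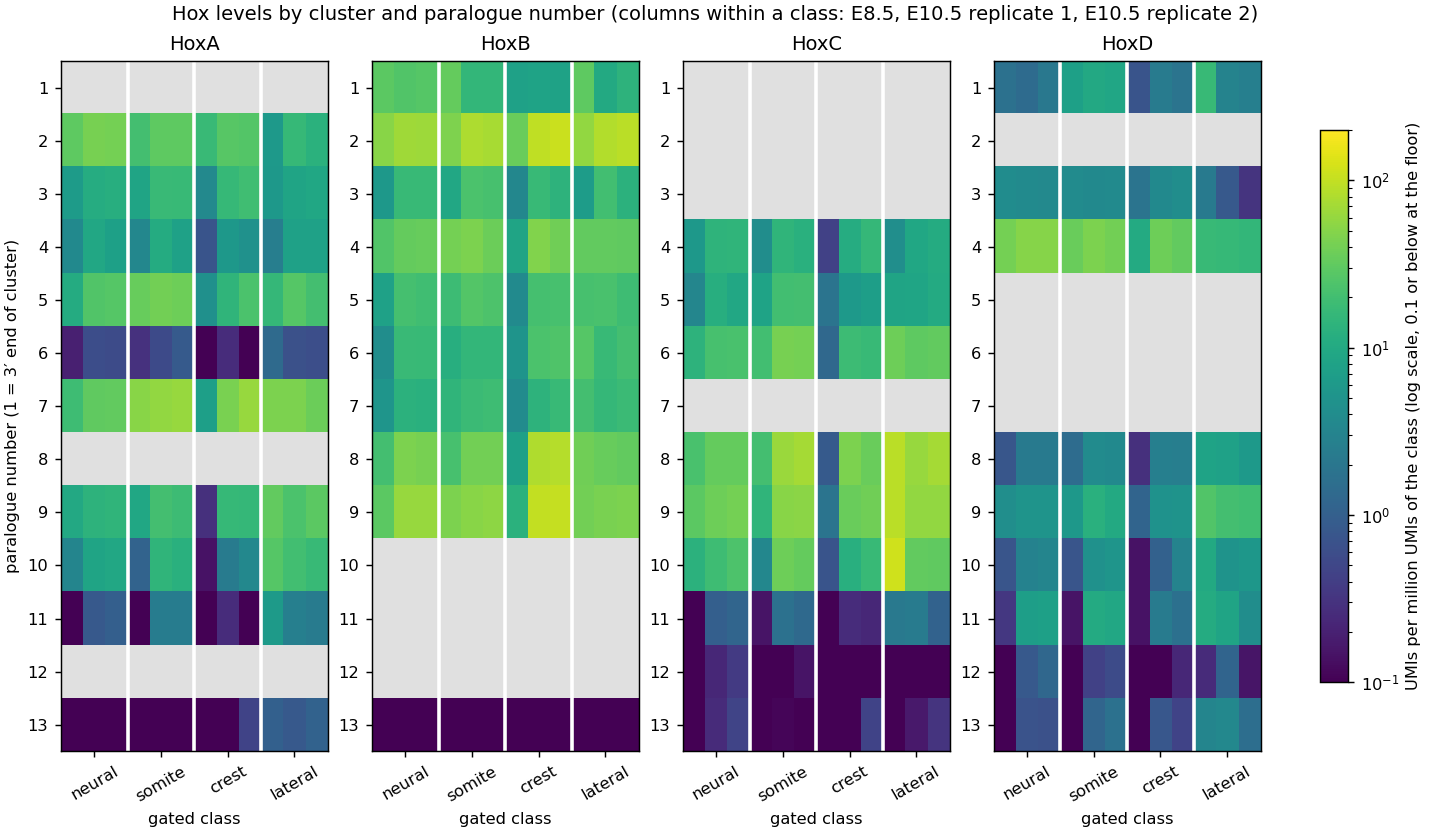
Level of each member in CPM (UMIs per 1000000 UMIs of a class; colour, log scale, values of 0.1 or below drawn at the floor), by cluster (panels), paralogue number (rows) and gated class (columns, each with E8.5, E10.5 replicate 1 and E10.5 replicate 2 from left to right). Grey cells hold no member. Hoxb2 reached 97.0 and 107 in crest at E10.5, and members 8 to 10 of HoxC were brightest in lateral barcodes at E8.5.

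The balance between low and high paralogue numbers differed between classes at E8.5 and less so at E10.5. Groups 9 to 13 gave 42.2% of the Hox UMIs in lateral barcodes at E8.5 (exact binomial 95% interval 41.0 to 43.4), 22.3% in neural, 16.2% in somite and 12.1% (10.1 to 14.3) in crest barcodes. At E10.5 they gave 31.8 and 31.3% in lateral, 25.3 and 25.3% in somite, 24.3 and 25.0% in crest, and 24.2 and 25.8% in neural barcodes. Lateral barcodes stood above the other classes in all 3 libraries, and these shares were not tested. Intervals and limits here and below cover counting error only. Groups 1 to 3 ran the other way at the ends at E8.5, with 48.8% in crest and 14.7% in lateral barcodes. At E8.5 neural also stood above somite barcodes in the shares of groups 1 to 3 and of groups 9 to 13. At E10.5 their shares of groups 9 to 13 overlapped.

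**Figure D2:**
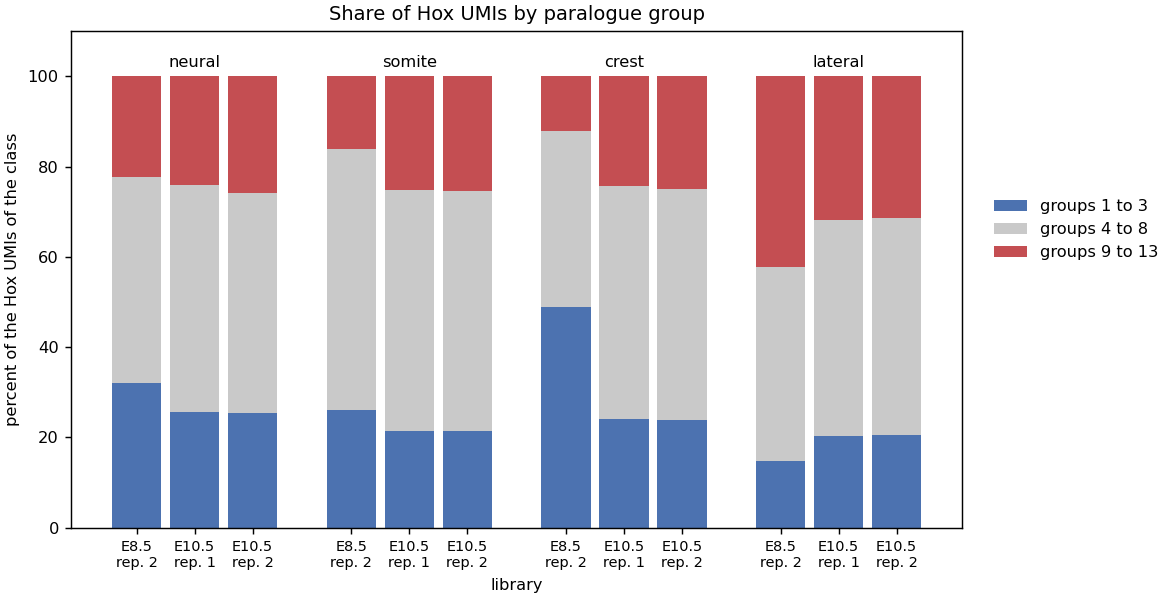
Share of the Hox UMIs of each class (percent, bars stacked to 100) from paralogue groups 1 to 3, 4 to 8 and 9 to 13, 1 bar per library. Groups 9 to 13 filled 42.2% of the lateral bar at E8.5 and 12.1% of the crest bar, against 31.8 and 31.3% and 24.3 and 25.0% at E10.5.

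The clusters were also unequally used. HoxB held the largest share in crest, with 61.3% of the Hox UMIs at E8.5 and 56.6 and 55.5% at E10.5, against 37.6 and 37.2% in somite barcodes at E10.5. HoxC gave 40.4% in lateral and 4.93% in crest barcodes at E8.5. By E10.5 the HoxC shares were 29.2 and 31.3% in lateral and 17.9 and 17.3% in crest barcodes. HoxD gave between 6.78 and 13.1% in every class and library.

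Hox genes per barcode were counted at a fixed depth. With every barcode thinned to 10000 UMIs, and the shallower ones left out, lateral barcodes at E8.5 held a mean of 5.41 Hox genes, somite 3.33, neural 2.53 and crest 0.995. The shallower barcodes numbered 15, 36, 14 and 2, and erythroid barcodes held a mean of 0.195 Hox genes. Before thinning the means were 8.85, 5.88, 4.29 and 2.24, and the order was the same. Of the thinned neural barcodes with a gene of groups 9 to 13, 78.4% at E8.5 and 80.3 and 80.9% at E10.5 also held a gene of groups 1 to 3. In lateral barcodes the share was 63.0% at E8.5 and 61.4 and 64.8% at E10.5.

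Class contrasts at E10.5 were fitted with edgeR (quasi-likelihood test) on UMIs summed per library and class, with Benjamini-Hochberg adjustment over 13692 genes and a threshold of 0.05. A member is called where its adjusted p lies under that threshold, and log2 fold changes carry their standard error. The filter on low counts kept 35 of the 38 members, and Hoxb13, Hoxc12 and Hoxc13, with at most 0.479 CPM in any class, were not tested. Since 20 to 56.6% of all genes were called in a contrast, the counts are read beside that share.

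Crest and lateral cells differed by paralogue number. Between them 23 of the 35 members were called, 9 higher in crest and 14 lower, where 34.7% of all genes were called (15.8% higher and 18.9% lower). Of 13 tested members of groups 9 to 13, 10 were lower in crest and 1, Hoxb9, was higher, with a median log2 fold change of -1.94 beside -0.03 for all genes. Of 7 in groups 1 to 3, 4 were higher and 1 lower. Without myocardial barcodes 6 members were higher and 15 lower (32.2% of all genes called), and Hoxa7, Hoxb2 and Hoxb4 lost their calls. Without Epcam or Cdh1 barcodes 9 were higher and 13 lower (33.9%), and no called member turned under either filter.

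Hoxb8 and Hoxb9, adjacent genes of HoxB, were highest in crest. Hoxb9 held 98.1 and 103 CPM in crest, 61.1 and 62.5 in neural, 51.3 and 54.5 in somite, and 43.3 and 44.8 in lateral barcodes. Hoxb8 held 79.8 and 86.3 in crest, 44.4 and 42.6 in neural, 40.1 and 39.2 in somite, and 34.5 and 32.3 in lateral barcodes. Both crest libraries lay above all libraries of the other classes. The log2 fold changes of crest over lateral were 1.20 ± 0.08 for Hoxb9 and 1.33 ± 0.08 for Hoxb8 (edgeR, adjusted p = 1.3e-08 and 7.0e-09). Without marked barcodes, neural levels were 100.6 and 107.9 for Hoxb9 and 72.5 and 71.9 for Hoxb8. Only Hoxb8 then passed the test as lower in neural than in crest barcodes (edgeR, adjusted p = 0.014, against 0.63 for Hoxb9).

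The 5′ members of HoxA, HoxC and HoxD stood on the lateral side. Hoxa10, a gene of the abdominal region and the genital tract, held 20.2 and 16.7 in lateral and 2.39 and 3.50 in crest barcodes (log2 fold change of crest over lateral -2.62 ± 0.27). Hoxd9 held 20.5 and 19.4 in lateral, 12.48 and 10.25 in somite, 5.16 and 5.16 in neural, and 4.77 and 4.90 in crest barcodes (-2.03 ± 0.21). Its lateral levels exceeded those of every other class without overlap. Hoxc8, Hoxc9 and Hoxc10, genes of the thoracic and lumbar body, were lower in crest than in lateral barcodes by 0.66 to 1.15 on the log2 scale. Hoxc8 held 45.1 and 35.7 against 62.3 and 72.7, Hoxc9 35.3 and 38.5 against 58.8 and 58.5, and Hoxc10 11.9 and 16.6 against 32.6 and 31.5. Hoxa9, at 16.4 and 15.6 against 23.0 and 29.5, and Hoxd11, at 2.39 and 1.63 against 8.49 and 4.21, were lower in crest as well, and so was Hoxd10, at 1.06 and 3.03 against 5.00 and 5.62.

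With marked barcodes included, each of these 5′ members was higher in somite than in neural barcodes in both libraries. Without them only Hoxc8 and Hoxd9 of these members were still called higher in somite, Hoxc9 was called 0.21 higher in neural on the log2 scale (edgeR, adjusted p = 0.0012), and Hoxa9 stood at 0.14, Hoxa10 at -0.055, Hoxc10 at -0.20, Hoxd10 at -0.22 and Hoxd11 at -0.079 for neural over somite, none of them called. The values that follow include marked barcodes. Hoxa9 held 13.6 and 14.4 in neural and 20.5 and 18.6 in somite barcodes, and Hoxa10 held 8.59 and 9.57 and 14.6 and 12.6. Hoxc8 held 33.6 and 33.2 in neural and 64.3 and 72.1 in somite barcodes, Hoxc9 37.6 and 40.4 and 51.7 and 53.1, and Hoxc10 19.1 and 24.2 and 37.6 and 33.5. Hoxc8 and Hoxc10 of somite barcodes thus reached their lateral levels. Hoxd10 held 2.92 and 3.18 in neural and 4.65 and 5.24 in somite barcodes, and Hoxd11 held 7.08 and 7.54 and 10.501 and 9.42.

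**Figure D3:**
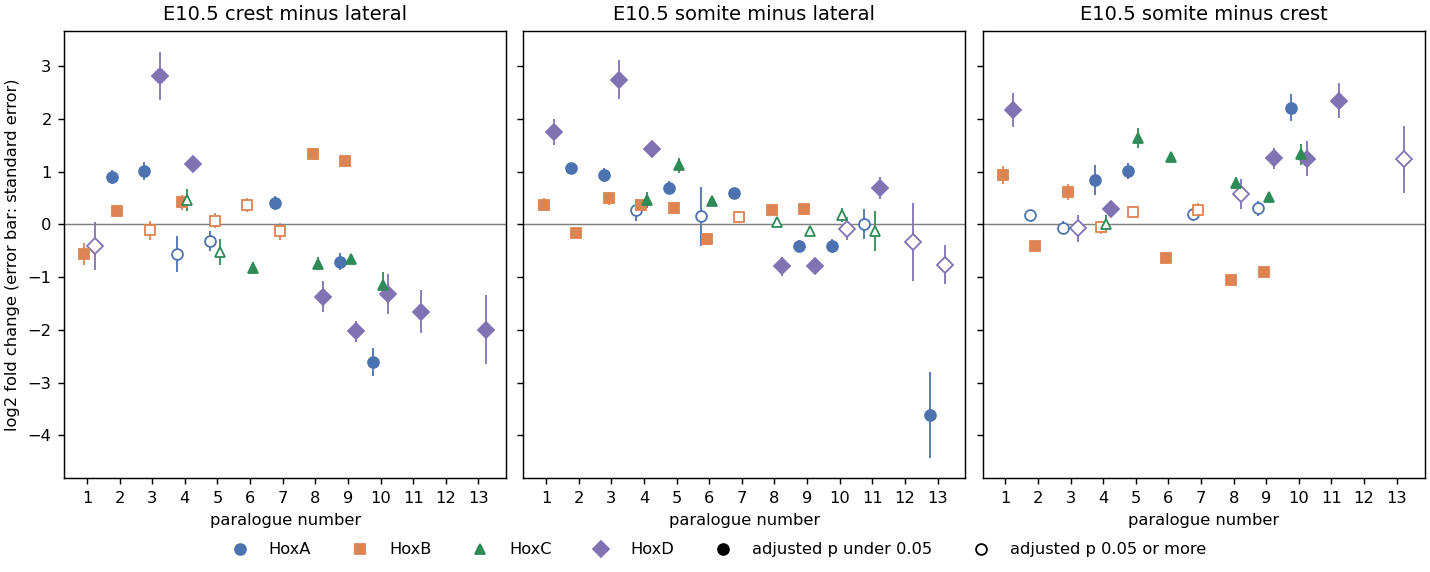
Log2 fold change of each member at E10.5 (y axis, error bars are standard errors) by paralogue number (x axis) for 3 contrasts, with marker and colour giving the cluster and filled points an adjusted p under 0.05. Members with at most 3 UMIs in either class are not drawn. In the contrast of crest with lateral barcodes, groups 9 to 13 lie below 0 except Hoxb9 at 1.20.

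Somite and lateral cells, both of mesoderm, were compared next. Between them 24 of 35 members were called, 17 higher in somite and 7 lower, where 39.4% of all genes were called (18.0 and 21.3%). All 7 members of groups 1 to 3 were called, 6 of them higher and Hoxb2 lower, by 0.16 on the log2 scale. Of 15 members of groups 4 to 8, 11 were called, 9 higher and 2 lower. Of the lower ones, Hoxb6 lost its call with the replicate number as a block (edgeR, adjusted p = 0.055). Of 13 tested members of groups 9 to 13, 2 were higher and 4 lower. Without myocardial barcodes 10 members were higher and 7 lower (34.1% of all genes), and Hoxb1, Hoxb3, Hoxb4, Hoxb5, Hoxb8, Hoxb9 and Hoxc4, all higher in somite before, lost their calls. Without Epcam or Cdh1 barcodes 15 were higher and 7 lower (36.2%), and Hoxb2, Hoxb5 and Hoxb8 lost theirs.

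Hoxd4 was lowest in lateral cells. It held 44.9 and 39.2 in somite, 50.5 and 50.5 in neural, 37.6 and 32.4 in crest, and 16.3 and 15.5 in lateral barcodes, so that both lateral libraries lay below all others (somite over lateral 1.43 ± 0.10). Hoxd3 and Hoxd4 overlap on the same strand, so the counts of both are uncertain. Hoxd3 held 3.66 and 3.78 in somite and 0.833 and 0.312 in lateral barcodes. Hoxa2, the most anterior member in the hindbrain, held 30.2 and 29.99 in somite against 16.49 and 12.8 in lateral barcodes (1.07 ± 0.10). Hoxd1 was highest in somite at E10.5, with 9.73 and 9.01 there and 1.45 to 3.00 in the other classes.

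Somite cells also stood above crest. Of the 35 members 21 were called between them, 17 higher in somite and 4 lower, where 20% of all genes were called (10.0% in each direction). All 4 lower members belonged to HoxB, namely Hoxb2, Hoxb6, Hoxb8 and Hoxb9. With a gate minimum of 1 UMI in place of 2, Hoxb2 and Hoxb6 turned to 0.10 and 0.28 on the log2 scale of somite over crest. All 5 called HoxD and all 6 called HoxC members were higher in somite. Hoxc6 held 41.8 and 41.3 in somite and 18.3 and 16.6 in crest barcodes (1.28 ± 0.10), and Hoxc5 held 20.1 and 20.5 against 6.10 and 6.997, with the limit that its annotated span overlaps Hoxc6, Hoxc8, Hoxc9 and Hoxc10. Hoxa5, a gene of the neck and lung, held 39.3 and 37.0 against 14.3 and 23.6 (1.01 ± 0.15).

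The neural contrasts depended on the marked barcodes. Against somite, 27 members were called, 5 higher in neural and 22 lower (56.6% of all genes, 28.5 and 28.2%). Without marked barcodes 16 were higher and 8 lower (54.3% of all genes), and Hoxb2, Hoxb3, Hoxb4, Hoxb5, Hoxb7 and Hoxc9 were called in the opposite direction. Hoxa2, Hoxb1, Hoxb9, Hoxd4 and Hoxd12 were higher in neural in both fits, and Hoxa7, Hoxa11, Hoxc5, Hoxc6, Hoxc8, Hoxd1, Hoxd9 and Hoxd13 were lower in both. Hoxb1, a gene of the hindbrain, held 25.7 and 26.8 in neural, 15.2 and 15.3 in somite, 10.2 and 13.7 in lateral, and 8.22 and 7.93 in crest barcodes. Hoxa7 held 30.9 and 32.1 in neural and 58.1 and 61.4 in somite barcodes.

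Against crest, 16 members were called, 9 higher in neural and 7 lower (36.6% of all genes, 19.4 and 17.1%), and without marked barcodes 24 were higher and 1, Hoxb8, was lower (36.6%). Against lateral cells, 23 were called, 8 higher and 15 lower (54.9%, 26.0 and 28.9%), and without marked barcodes 20 were higher and 7 lower (55.9%). With marked barcodes included and lateral myocardial barcodes left out, 5 were higher and 17 lower (50.9%), and without lateral Epcam or Cdh1 barcodes 7 were higher and 16 lower (53.3%). Those lower than lateral cells both with and without marked barcodes were Hoxa10, Hoxa11, Hoxa13, Hoxc8, Hoxd8, Hoxd9 and Hoxd13, none of them below number 8. Those higher both with and without marked barcodes were Hoxa2, Hoxa3, Hoxb1, Hoxb8, Hoxb9, Hoxc4, Hoxd3 and Hoxd4. Of the higher ones, Hoxa3, Hoxb8 and Hoxc4 lost their calls without myocardial barcodes, and Hoxa3 without Epcam or Cdh1 barcodes. Hoxa13, a gene of the tail end and the limbs, rested on 12 UMIs in lateral and 8 in neural barcodes, a ratio of levels of 18.5 (exact 95% interval 6.97 to 52.3).

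Most of the other members above 10 CPM belong to HoxB. Hoxb2, which patterns the hindbrain, had the highest level of every class at E10.5 over both libraries together, with 97.0 and 107 in crest, 82.9 and 89.7 in lateral, 77.6 and 74.5 in somite, and 68.2 and 66.3 in neural barcodes. Hoxb4 held 47.2 and 38.2 in crest, 44.6 and 35.9 in somite, 33.4 and 34.2 in neural, and 32.3 and 31.7 in lateral barcodes. Hoxb5, a gene of the neck level, held 26.3 and 23.7 in somite, 21.2 and 21.7 in crest, 22.3 and 18.9 in lateral, and 21.0 and 19.4 in neural barcodes. As gated, the classes did not overlap for Hoxb2, whereas crest and somite overlapped for Hoxb4, and crest, lateral and neural for Hoxb5. That order of Hoxb2 depended on the gates. Without marked barcodes neural Hoxb2 stood at 107.1 and 105.8 and overlapped crest. With a gate minimum of 1 UMI, Hoxb2 was -0.22 in crest over lateral and 0.10 in somite over crest on the log2 scale, and without myocardial barcodes lateral Hoxb2 stood at 90.1 and 97.8 and overlapped crest.

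Hoxb3 and Hoxb7 were also spread over all classes, Hoxb3 with 23.1 and 22.2 in somite, 19.8 and 13.1 in lateral, and 13.5 to 16.7 in neural and crest barcodes. Hoxb7 held 17.8 and 18.8 in somite, 15.99 and 17.6 in lateral, 13.5 and 16.8 in crest, and 13.11 and 12.495 in neural barcodes. Hoxb6 was highest in crest, at 23.3 and 24.5, with 16.7 and 20.8 in lateral, 17.5 and 16.6 in neural, and 15.1 and 15.1 in somite barcodes. Without marked barcodes neural levels were 28.2 and 27.8 for Hoxb6, above crest, with neural over crest at 0.23 on the log2 scale and no longer called (edgeR, adjusted p = 0.11). They were then also above every other class for Hoxb4, at 53.4 and 56.8, for Hoxb5, at 32.9 and 32.4, and for Hoxb7, at 20.6 and 21.1. Among paralogues of the other clusters, Hoxa3, which overlaps Hoxa4, Hoxa5 and Hoxa6, held 17.2 and 16.53 in somite, 16.2 and 19.4 in crest, 11.1 and 11.7 in neural, and 8.49 and 9.36 in lateral barcodes. Hoxa4 held 10.6 and 7.74 in somite, 9.54 and 7.60 in neural, 7.66 and 7.80 in lateral, and 5.83 and 4.66 in crest barcodes. As gated, Hoxc4 lay between 9.16 and 15.6 in all classes, lowest in lateral barcodes of replicate 1 and highest in crest barcodes of replicate 2. Neural levels without marked barcodes were 26.52 and 26.97 for Hoxb3, 14.99 and 12.57 for Hoxa4, and 21.998 and 23.88 for Hoxc4. Hoxb3, Hoxa4 and Hoxc4 then lay above every other class and were called higher in neural in each neural contrast. Hoxa3 then stood at 17.19 and 18.73 in neural barcodes and overlapped crest.

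The 11 members below 10 in every class and library were Hoxa6, Hoxa11, Hoxa13, Hoxb13, Hoxc11, Hoxc12, Hoxc13, Hoxd3, Hoxd8, Hoxd12 and Hoxd13, most of them of high number. Their highest levels ranged from 0.0768 for Hoxb13 to 8.15 for Hoxd8.

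For members already named in other contrasts, the levels not yet given were as follows. Hoxa2 held 42.0 and 41.3 in neural and 27.8 and 26.4 in crest barcodes. Hoxa5 held 25.8 and 26.6 in neural and 27.3 and 20.9 in lateral barcodes, and Hoxa7 held 43.5 and 61.6 in crest and 44.3 and 36.7 in lateral barcodes. As gated, the ranges of crest and lateral barcodes overlapped for Hoxa7, and those of neural and lateral barcodes for Hoxa5. Without marked barcodes neural Hoxa5 stood at 40.4 and 43.3, above lateral. Hoxc5 held 11.7 and 9.68 in neural and 8.66 and 10.3 in lateral barcodes. Hoxc6 held 21.9 and 22.8 in neural and 30.1 and 31.8 in lateral barcodes. With marked barcodes left out, neural levels were 18.7 and 15.8 for Hoxc5, 35.1 and 36.7 for Hoxc6 and 49.2 and 52.4 for Hoxa7. All 3 then lay above lateral barcodes, and the calls of Hoxa7 and Hoxc6 against lateral barcodes turned to the opposite direction.

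The single E8.5 library gave a sharper picture of position. Lateral barcodes held 114 CPM of Hoxc10, 90.7 of Hoxc8 and 89.8 of Hoxc9, the 3 highest members there. Hoxc10 held 13.2 in neural, 3.35 in somite and 0.726 in crest barcodes, and the lateral level was 34.0 times the somite level (exact 95% interval 25.2 to 47.0). Hoxa10 (27.2), Hoxd9 (25.2), Hoxd11 (10.8) and Hoxd10 (10.1) were likewise highest in lateral barcodes. In the lateral barcodes with at least 10 myocardial UMIs Hoxc10 stood at 13.9, and in the others at 141.

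Crest at E8.5 was at the other end. Hoxb2 (35.6), Hoxa2 (17.4), Hoxb9 (12.9) and Hoxd4 (10.3) were the only members above 10 CPM, and Hoxb8 held 7.55. Hoxc8, Hoxc9 and Hoxc10 held 6, 13 and 5 UMIs in all. Somite barcodes were led by Hoxa7 at 51.7, followed by Hoxb2 at 45.8 and Hoxb9 at 45.2. Neural barcodes were led by Hoxb2 at 51.3 and Hoxd4 at 41.0.

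Members of the middle of the clusters at E8.5 were mostly lowest in crest. Hoxa7 held 44.7 in lateral, 18.9 in neural and 7.26 in crest barcodes. Hoxa5 held 33.9 in somite, 15.9 in lateral, 10.8 in neural and 4.50 in crest barcodes. Hoxb4 held 41.0 in somite, 32.2 in lateral, 25.4 in neural and 8.42 in crest barcodes. Hoxb1, the earliest member switched on in HoxB, held 33.2 in somite, 30.3 in lateral, 29.4 in neural and 7.84 in crest barcodes. Hoxb5, Hoxb6 and Hoxb7 held 21.8, 27.0 and 20.5 in lateral barcodes and 3.77, 5.08 and 3.92 in crest barcodes. In neural barcodes they held 7.76, 4.20 and 5.34, so Hoxb6 was lowest there, with counting intervals of the neural and crest levels that overlapped. Without marked barcodes neural levels at E8.5 were 45.7 for Hoxb1 and 41.6 for Hoxb4, and 13.02, 6.59 and 8.55 for Hoxb5, Hoxb6 and Hoxb7, so that crest was then lowest for Hoxb6 too. Hoxd1, highest in somite at E10.5, held 16.9 in lateral and 7.44 in somite barcodes. With 1 library and stages of separate embryos, no difference between E8.5 and E10.5 was tested.

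Genes that act with or on Hox genes were counted in the same contrasts, in which 34.7% of all genes were called between crest and lateral, 20% between somite and crest, and 39.4% between somite and lateral barcodes. Of 9 cofactors 5 were called between crest and lateral barcodes, 2 higher and 3 lower, and Meis1 and Meis2 were among the lower ones, each at -1.72. Somite stood above crest for Meis2 (1.63 ± 0.06) and Meis1 (1.41 ± 0.09) and below it for Meis3 (-1.09 ± 0.07), with 4 of 9 called. Of 10 tested upstream genes 4 were called between somite and lateral barcodes, among them Cdx1 (2.92 ± 0.33), a direct activator of Hox genes, and Aldh1a2 (2.17 ± 0.11), which makes retinoic acid, both higher in somite. Of 8 chromatin regulators 3, 3 and 1 were called in the contrasts of somite with crest, somite with lateral and crest with lateral barcodes. Several of these counts lie near or below the share of all genes. Bmi1, a Polycomb protein, was higher in somite than in either class by 0.65 on the log2 scale. Against neural barcodes 8, 6 and 7 cofactors, 6, 7 and 5 upstream genes and 5, 3 and 3 chromatin regulators were called for somite, crest and lateral barcodes, with marked barcodes included, where 56.6, 36.6 and 54.9% of all genes were called.

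In the heart little Hox RNA remained. All barcodes together held 11.03 and 11.55 CPM of Hox UMIs at E12.5, then 7.97 and 8.01 at E14.5, later 7.11 and 6.93 at E16.5, with 8.45 at P3. Cardiomyocytes, described below, held 47.5 and 48.7% of all UMIs at E12.5, 62.3 and 60.03% at E14.5, then 66.4 and 66.5%, and 69.02% at P3. Outside them the E12.5 libraries held 18.8 and 20.3 CPM of Hox UMIs, those of E14.5 held 19.2 and 17.9, those of E16.5 held 19.9 and 19.6, and P3 held 26.4, so the embryonic stages overlapped there. Barcodes of at most 100 UMIs held 5.15 to 8.05. Of the 38 members, 7 had no UMI in any of the 7 heart matrices (Hoxc8, Hoxc10, Hoxc11, Hoxc12, Hoxd11, Hoxd12 and Hoxd13), 9 had 1 to 20 and 22 had more than 20. Hoxb2 with 1814 UMIs and Hoxb4 with 1201 came first, followed by Hoxd4 with 579 and Hoxa5 with 574.

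What remained lay mostly outside the cardiomyocytes. Heart barcodes were put into a class when at least 3 of its 8 markers, none of them a Hox gene, had a UMI and it led every other class by at least 2 markers. Class names stand for these markers only. Cardiomyocytes gave 117 of 1113 and 142 of 1430 Hox UMIs at E12.5, and barcodes of no class gave 289 and 342. Cardiomyocytes held 2.44 and 2.35 CPM of Hox UMIs at E12.5, then 1.17 and 1.46 at E14.5, later 0.632 and 0.550 at E16.5, with 0.394 at P3. Fibroblasts held 32.4 and 38.03, then 15.99 and 12.6, then 20.2 and 20.4, and 14.02 at P3. Endothelial barcodes held 10.4 and 10.1 at E12.5, then 36.6 and 35.9 at E14.5, later 42.2 and 42.8 at E16.5, with 47.8 at P3. Epicardial sums, from 14 to 78 barcodes, held 27.7 to 98.3. Fibroblast, epicardial and endothelial sums lay above the cardiomyocyte sum in all 7 matrices.

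**Figure D4:**
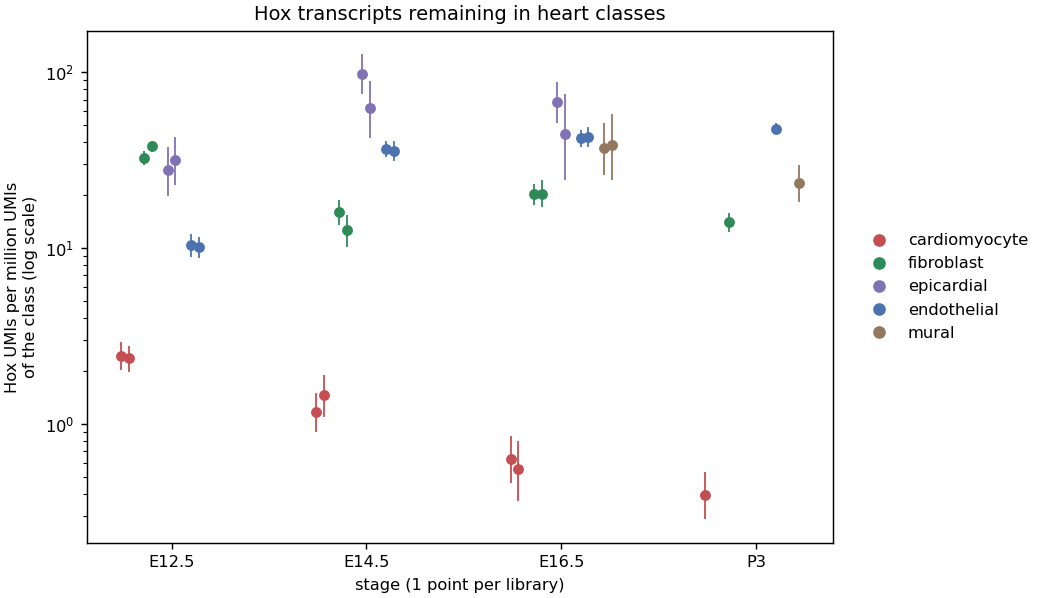
Hox level of each heart class in CPM (y axis, log scale) by stage, 1 point per library, with exact Poisson 95% intervals, for sums of at least 20 barcodes and more than 3 Hox UMIs. Cardiomyocytes lie between 0.394 and 2.44 and endothelial barcodes between 10.1 and 47.8.

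Of 13 members that passed the filter in the heart class fit, every call against cardiomyocytes was higher in the other class. These members passed the filter largely through the classes in which they are high, so this direction is a description and nothing is read from it. Hoxc6, with most of its UMIs in cardiomyocytes, was not tested. At E12.5, 11 members were called in fibroblasts (71.8% of all genes, 37.2% higher), 3 in epicardial (46.9%, 22.3% higher and 24.6% lower) and 9 in endothelial barcodes (71.6%, 34.7% higher and 36.9% lower). At E14.5 the counts were 9 (69.6%, 36.0% higher), 6 (37.9%, 19.5% higher) and 11 (69.2%, 34.1% higher), and at E16.5 they were 10 (71.8%, 35.2% higher), 6 (42.3%, 19.8% higher) and 12 (70.0%, 34.5% higher). Without E14.5 replicate 1 the epicardial count at E14.5 was 2, and without E16.5 replicate 1 that at E16.5 was 2. Many cardiomyocyte sums held 3 UMIs or fewer, so fitted folds are not described here. Hoxb2, the most abundant member, held 51 and 72 UMIs in cardiomyocytes at E12.5, and fibroblasts stood at 7.01 times that level (exact 95% interval 5.63 to 8.75) and epicardial barcodes at 18.2 times (13.1 to 25.0).

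Epicardial barcodes were led by Hoxb2, with 19.6 and 21.8 CPM at E12.5, 65.5 and 37.5 at E14.5, then 29.7 and 22.3 at E16.5, and the P3 sum of 14 barcodes was led by Hoxa5 with 16 UMIs, 15 of them in 1 barcode. The epicardial call of Hoxa5 at E14.5 rested on 2 UMIs of 1 barcode. Mural barcodes, of vessel walls, held 31 and 10 UMIs of Hoxb2 at E16.5 (33.0 and 16.8 CPM) and 50 at P3 (17.3). Most Hoxc6 UMIs of the heart lay in cardiomyocytes, with 15 and 15 at E12.5, then 16 and 5 at E14.5, later 9 and 7 at E16.5, with 5 at P3, at 0.0458 to 0.313 CPM and at most 2 in a barcode. Endothelial and epicardial barcodes held none, and fibroblasts held 4 and 1 at E16.5 (0.415 and 0.159 CPM) and 1 at P3.

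Other members called in a heart class rested on few UMIs. Hoxd8 held 13 and 13 UMIs in endothelial barcodes at E14.5, then 24 and 16 at E16.5 (3.27 and 2.89 CPM), and at most 1 in cardiomyocytes of any matrix. Hoxa7 held 9 and 12 endothelial UMIs at E16.5 (1.22 and 2.17 CPM) and 30 at P3, with none in cardiomyocytes at E16.5. Hoxc4 held 12 and 4 UMIs in fibroblasts at E16.5 and none in endothelial barcodes of any matrix. Hoxb3 held 13 and 12 endothelial and 12 and 6 fibroblast UMIs at E16.5. Hoxa4 in fibroblasts at E14.5 held 14 UMIs in replicate 1, 71.4% of them in 2 barcodes, and none in replicate 2.

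Fibroblast and endothelial barcodes exchanged rank between E12.5 and E14.5. Hoxd4 held 146 and 200 UMIs in fibroblasts at E12.5 (9.95 and 10.9 CPM), in 58 and 78 barcodes, and 12 and 9 at E14.5 (1.35 and 1.25). In endothelial barcodes it held 2 and 4 UMIs at E12.5 (0.113 and 0.201 CPM) and 32 and 26 at E14.5 (3.43 and 3.79). Neither class overlapped between the stages. The difference of endothelial and fibroblast sums at E14.5, less that at E12.5, was tested in the same edgeR fit after these values had been seen. Of 13 members 7 were called, all higher, where 9.46% of all genes were called (4.89% higher). These members passed the filter largely through the same classes, so the count and the folds describe the values that prompted the comparison and are no separate support for them.

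The 7 members were Hoxd4 (log2 7.42 ± 0.60), Hoxb5 (5.17 ± 0.92), Hoxa5 (3.79 ± 0.68), Hoxb4 (2.85 ± 0.41), Hoxa3 (2.60 ± 0.57), Hoxb2 (2.29 ± 0.33) and Hoxa2 (2.05 ± 0.66). Each of these calls but Hoxa2's held without each library in turn, where the sums left alone in a stage were assumed to vary like the other groups. Hoxa2 had an adjusted p of 0.0475 in the edgeR fit and 0.0684 to 0.49 without a library. Hoxb4, a gene of the neck region that is also known from blood stem cells, went from 3.55 and 2.86 to 8.15 and 6.27 CPM in endothelial barcodes and from 5.59 and 6.26 to 1.91 and 1.81 in fibroblasts. Hoxa5 went from 1.13 and 1.40 to 4.397 and 4.23 in endothelial barcodes and from 0.954 and 2.07 to 0.338 and 0.417 in fibroblasts. Hoxb2 and Hoxa5 stood in fibroblasts at 7.78 and 5.58 and at 3.94 and 2.71 at E16.5, so these 2 were not low there at the later stage. The share of Npr3 barcodes among the endothelial barcodes that were split shifted between the stages, as described next. Fibroblast names barcodes that carry markers such as Col1a1, Col3a1, Pdgfra and Postn. The study lists Col3a1 for mesoderm-derived cells, and it names fibroblasts for the E16.5 heart but not among the main E14.5 cell types. Whether these barcodes were fibroblasts, and of the same kinds at both stages, was not tested.

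**Figure D5:**
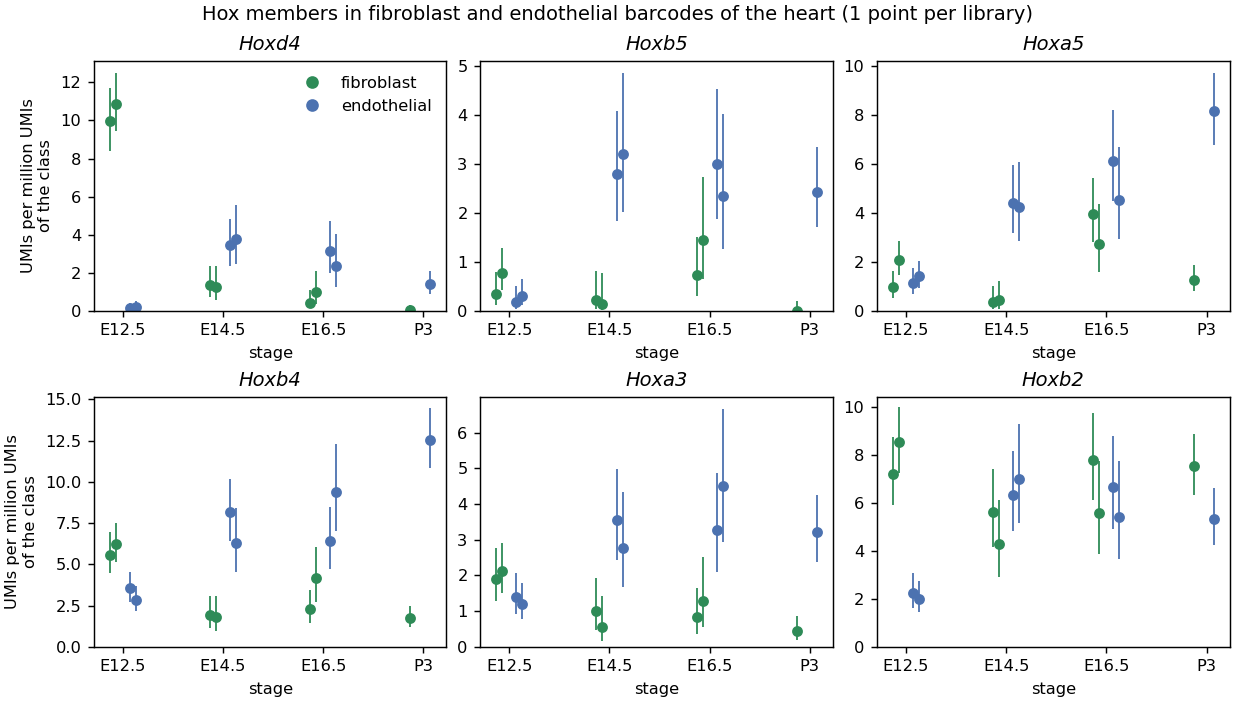
Level in CPM (y axis) for 6 members in fibroblast and endothelial barcodes of the heart by stage, 1 point per library, with exact Poisson 95% intervals. Hoxd4 in fibroblasts lies at 9.95 and 10.9 at E12.5 and at 1.35 and 1.25 at E14.5, while endothelial points lie at 0.113 and 0.201 and then at 3.43 and 3.79.

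Within the endothelium Hox levels were lower in barcodes with an endocardial marker. Barcodes with at least 2 UMIs of Npr3, an endocardial gene, held 4.73 and 4.72 CPM of Hox UMIs at E12.5, then 9.51 and 9.43 at E14.5, later 10.4 and 6.49 at E16.5, with 14.4 at P3. Barcodes with fewer than 2 UMIs of Npr3, and fewer than 2 of Lyve1 and Prox1 together, are called those without the 3 genes. They held 18.9 and 19.1, 59.0 and 48.2, 56.4 and 59.1, and 60.9. Barcodes with at least 2 UMIs of both kinds entered no group. Barcodes with Npr3 were 55.1 and 55.3% of the endothelial barcodes in this split (with Npr3, with Lyve1 or Prox1, or without the 3 genes) at E12.5. They were 43.5 and 31.01% at E14.5, then 37.8 and 33.2%, and 22.5% at P3. The Hox level was higher at E14.5 than at E12.5, without overlap, both with Npr3 and without the 3 genes. The ratio lay between 3.99 and 9.11 in the 7 matrices, and each exact interval lay above 1, the lowest from 2.82. Barcodes with Lyve1 or Prox1 (at least 2 UMIs together), genes of lymphatic endothelium, held 25.1 and 17.6 CPM at E12.5, then 25.2 and 52.8, later 158 and 124 at E16.5, with 52.7 at P3, from 17 to 34 barcodes a matrix. They stood above the barcodes without these genes in both E16.5 matrices, in E12.5 replicate 1 and in E14.5 replicate 2, and below them in the other 3 matrices, with counting intervals apart only at E16.5 and, in the opposite direction, in E14.5 replicate 1. All 10 and 9 Hoxd9 UMIs of endothelial barcodes at E16.5 were in barcodes with Lyve1 or Prox1.

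Over all heart barcodes 18 members were tested between stages. From E12.5 to E14.5, 8 were called (9 with the replicate number as a block), 3 higher and 5 lower, where 48.0% of all genes were called (24.3% higher and 23.7% lower). Hoxd4 fell from 1.66 and 1.91 CPM to 0.519 and 0.610 (log2 fold change -1.70 ± 0.18), Hoxb4 from 2.48 and 2.18 to 1.36 and 1.27 (-0.85 ± 0.19), Hoxb2 from 3.44 and 3.38 to 2.499 and 2.57 (-0.45 ± 0.16), and Hoxa3 from 0.882 and 0.799 to 0.601 and 0.429 (-0.70 ± 0.23). Hoxd3 went from 34 UMIs to 3, a ratio of 7.34 (exact 95% interval 2.31 to 37.3). Hoxb5 rose from 0.0991 and 0.194 to 0.354 and 0.445 (1.36 ± 0.34) and Hoxd8 from 9 UMIs to 29 (2.25 ± 0.62). Outside cardiomyocytes, whose share of UMIs differed between these stages, Hoxd4 went from 3.11 and 3.72 to 1.38 and 1.48 CPM and Hoxb4 from 4.38 and 3.95 to 3.35 and 2.89, without overlap. There Hoxb2 went from 5.59 and 5.46 to 5.79 and 5.402, and Hoxa3 1.53 and 1.43 and then 1.56 and 0.990, so both overlapped between the stages. Hoxb8, with no UMI at E12.5 and 18 at E14.5, was at least 9.27-fold higher against a floor of 3 counts over the group.

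From E14.5 to E16.5, 5 members were called, 4 higher and 1 lower, where 39.6% of all genes were called (21.2% higher and 18.4% lower). Hoxa5 rose from 0.613 and 0.544 to 1.06 and 0.826 (0.91 ± 0.23) and Hoxc4 from 6 UMIs to 26 (1.97 ± 0.68). Hoxa7 went from 3 to 26 UMIs (ratio 7.06, 2.16 to 36.4) and Hoxd9 from 1 to 23 (18.7, 3.04 to 771). Hoxa9 fell from 18 to 4 UMIs (-2.20 ± 0.64). These members rested on few UMIs, and DESeq2 called 5 and 1 members in the 2 stage contrasts. Without either E12.5 library the first count was 5, and the second was 2 without E16.5 replicate 1 and 3 without each other E14.5 or E16.5 library. The shares of all genes under these alternatives are not given here, so nothing about the members is read from these counts. Of the 9 cofactors 6 were called in the first contrast, 1 higher and 5 lower. In the second 7 were called, all lower, with Meis2 at -0.77 ± 0.06. Of 8 upstream genes 4 and 6 were called and of 8 chromatin regulators 6 and 2, beside the 48.0 and 39.6% of all genes.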

How the data were processed

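Barcoded 3′ libraries were sequenced per the labels with 3′ v2 chemistry after trypsin digestion, whereas the study's methods name v3 chemistry and collagenase II. The deposited matrices hold UMI counts per gene and barcode, which the authors made with Cell Ranger on mm10. The submitters' processing notes name Cell Ranger 2.1.1 and Seurat 3.1.1, while matrix headers carry 3.1.0 and, for P3, 3.0.0. Totals were 67141166 to 259041468 UMIs per library.

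The members and lists were chosen with earlier results of these data known. Barcodes of at least 2000 UMIs were kept and UMIs summed per library and class (at least 20 barcodes for a test). The main tests were edgeR 4.0.16 quasi-likelihood fits (TMM, filterByExpr, limma 3.58.1, R 4.3.3) and p-values were adjusted after Benjamini-Hochberg across every tested gene. E10.5 class contrasts, heart stage contrasts and heart class contrasts each came from 1 fit. The fits were tested on simulated data. Intervals are exact Poisson or binomial 95% intervals (scipy 1.17.1). All 38 members were described: those of at least 10 CPM in a gated class, or called in the heart, by their values, the others by their range. Of the pathway lists up to 4 called genes were named per contrast.

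Alternatives were DESeq2 1.42.0, no filter, other gate minimums, a mitochondrial ceiling, leaving out the top 5% of barcodes by UMIs, each library in turn, and a replicate block. The endothelial and lateral splits, the lateral fits without myocardial or epithelial barcodes, the levels outside cardiomyocytes, thinning to 10000 UMIs and the endothelial against fibroblast comparison between stages were added after seeing the data. Same-numbered class sums come from the same cell suspension. Their deviations correlated at 0.00384 to 0.0587 over 12 pairs at E10.5 and 0.00949 to 0.185 over 36 in the heart. With 2 libraries per group the deviations mirror each other, so replicates 1 and 2 gave the same values and the pairs are not all distinct. Heart libraries of different stages share a number in the labels, and correlated at 0.103 to 0.138 in 3 distinct values, each above 0.1. The reported stage fit has no block, and the blocked count is given beside it. No matrix was analysed here for E8.5 replicate 1. One marker of the list that defines marked barcodes and one cofactor are not reported here by name.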

Additional observations from a re-analysis of the deposited data

Results flagged for a closer look

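Several members had one order of 2 classes in the E8.5 library and the opposite order in both E10.5 libraries. E8.5 had 1 library, so these differences between stages were not tested. Values are ratios of CPM, with marked barcodes included in the neural sums.

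Crest barcodes account for most of them. The ratio of crest to neural was 0.361 for Hoxb8 at E8.5 (1.80 and 2.02 at E10.5), 0.444 for Hoxb9 (1.61 and 1.65), 0.384 for Hoxa7 (1.41 and 1.92), 0.552 for Hoxa3 (1.46 and 1.65) and 0.693 for Hoxb2 (1.42 and 1.62). The ratio of crest to somite was 0.342 for Hoxb8 (1.99 and 2.20), 0.286 for Hoxb9 (1.91 and 1.90), 0.438 for Hoxb6 (1.54 and 1.62) and 0.777 for Hoxb2 (1.25 and 1.44). The ratio of crest to lateral was 0.198 for Hoxb8 (2.31 and 2.67), 0.322 for Hoxb9 (2.26 and 2.31) and 0.618 for Hoxd4 (2.31 and 2.098).

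Among the other classes, somite over neural was 0.253 for Hoxc10 at E8.5 (1.97 and 1.38 at E10.5), 0.352 for Hoxa10 (1.70 and 1.32) and 0.499 for Hoxc9 (1.38 and 1.31). Somite over lateral was 0.439 for Hoxd1 (3.25 and 3.40) and 0.539 for Hoxc6 (1.39 and 1.30). Neural over lateral was 0.548 for Hoxb8 (1.29 and 1.32) and 0.726 for Hoxb9 (1.41 and 1.40), and neural over somite was 0.643 for Hoxb9 (1.19 and 1.15).

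Most of the orders that involve neural barcodes did not turn without marked barcodes. Crest over neural at E10.5 was then 0.941 and 1.03 for Hoxa3, 0.884 and 1.17 for Hoxa7, 0.906 and 1.01 for Hoxb2, and 0.975 and 0.958 for Hoxb9, and none of these 4 was called in either direction in the edgeR fit. For Hoxb8 it was 0.220 at E8.5 and 1.10 and 1.20 at E10.5, still the opposite order. Somite over neural at E10.5 was 0.862 and 0.851 for Hoxc9, below 1 as at E8.5 (0.319), 1.17 and 0.906 for Hoxa10, and 1.36 and 0.958 for Hoxc10. Neural over lateral for Hoxb9 was 1.15 at E8.5 and 2.32 and 2.41 at E10.5, and neural over somite for Hoxb9 was 1.017, with 1.96 and 1.98 at E10.5, so neither turned. For Hoxb8 neural over lateral was 0.897 and then 2.103 and 2.23.

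In the heart, the log2 difference of endothelial and fibroblast sums was larger at E14.5 than at E12.5 by 7.42 for Hoxd4, 5.17 for Hoxb5, 3.79 for Hoxa5, 2.85 for Hoxb4, 2.60 for Hoxa3, 2.29 for Hoxb2 and 2.05 for Hoxa2 in the edgeR fit, a comparison chosen after these values had been seen.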

How the results depend on the processing

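For single members, 2672 alternative values kept their direction and, where a test could be made, their side of the threshold, 173 lost the threshold and 33 reversed. The cause was not tested. Without marked barcodes, neural minus somite became 0.081 for Hoxa3, 0.12 for Hoxa5, 0.14 for Hoxa9, 0.18 for Hoxb7, 0.37 for Hoxb5, 0.44 for Hoxb4, 0.23 for Hoxb3, 0.48 for Hoxb2 and 0.21 for Hoxc9 (log2). Neural minus crest became 0.0057 for Hoxa3, 0.047 for Hoxb9, 0.23 for Hoxb6, 0.38 for Hoxb4 and 0.055 for Hoxb2, with 25 members called against 16. Neural minus lateral became 0.36 for Hoxa7, 0.34 for Hoxb7, 0.33 for Hoxb2, 0.091 for Hoxc9 and 0.24 for Hoxc6. With a gate minimum of 1 UMI, neural minus crest was -0.18 for Hoxa11 and 0.35 for Hoxb6, somite minus crest 0.28 for Hoxb6 and 0.10 for Hoxb2, and crest minus lateral -0.28 for Hoxa7 and -0.22 for Hoxb2. Leaving out an E10.5 library, Hoxa7 in crest minus lateral ranged from -0.026 to 0.78, and this gave values with no test.

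In the heart, epicardial minus cardiomyocyte without 1 library ranged from -2.80 to 6.83 for Hoxa4 at E12.5, from -3.20 to 6.86 for Hoxa3, 0 to 8.85 for Hoxa4 and 0 to 5.54 for Hoxa5 at E14.5, and from -2.99 to 6.39 for Hoxb3 and 0 to 7.40 for Hoxa7 at E16.5. Fibroblast minus cardiomyocyte ranged from 0 to 7.71 for Hoxa4 at E14.5. The low ends came without E12.5 replicate 2, E14.5 replicate 1 and E16.5 replicate 1, and the high ends are fitted values of sums with few UMIs. The counts that follow stand without the share of all genes under the same setting, so nothing about the members is read from them. DESeq2 called 5 members from E12.5 to E14.5, 1 from E14.5 to E16.5 (3 with the mitochondrial ceiling) and 10 in E16.5 epicardial barcodes. No filter gave 14 in E14.5 fibroblasts. Leaving out 1 library gave 9 to 12 members in fibroblasts, 2 to 4 in epicardial and 6 to 9 in endothelial barcodes at E12.5, 7 to 10, 2 to 6 and 10 to 12 at E14.5, and 9 to 11, 2 to 6 and 11 to 13 at E16.5. It gave 6 in every case for the endothelial against fibroblast difference, and 5 to 8 and 2 to 5 for the stage contrasts.

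With a gate minimum of 1 UMI, Hox levels in CPM at E8.5 were 417 in neural and 110 in crest barcodes, and the share of groups 9 to 13 was 24.5% in neural and 15.04% in somite barcodes at E8.5 and 24.4% in somite and 33.3% in lateral barcodes at E10.5. With 3, the levels were 393 in neural, 164 in crest and 824 in lateral barcodes, and the shares 20.9, 15.5 and 40.8% at E8.5 and 25.3% in somite, 25.5% in crest and 29.97% in lateral barcodes at E10.5. Counting Sox2 and Sox10 barcodes as crest gave 14.4 and 25.9%. Without marked barcodes E8.5 neural was 639 with 21.1%, and without myocardial barcodes E8.5 lateral was 1016 with 43.6% and 40.1% without Epcam or Cdh1 barcodes. Without the top 5%, E8.5 levels were 422 in neural, 154 in crest and 916 in lateral barcodes, and E10.5 shares 25.2% in somite, 24.1% in crest and 30.7% in lateral barcodes. Thinned to 2000 UMIs, neural, somite, crest and lateral barcodes held 0.746, 0.925, 0.276 and 1.41 Hox genes at E8.5 and 1.16, 1.46, 1.35 and 1.25 at E10.5, and to 10000 UMIs 2.53, 3.33, 0.995 and 5.41, and 3.74, 5.17, 4.16 and 4.67. With the replicate block, 228 calls kept their side and direction and 3 lost the threshold, namely Hoxb6 in E10.5 somite minus lateral (edgeR, adjusted p = 0.055), Hoxa2 in E16.5 fibroblast minus cardiomyocyte (0.053) and Hoxa7 in E16.5 epicardial minus cardiomyocyte (0.059), and no count of calls moved by over 1.5 times. Depth limits the heart values, where many sums held 3 UMIs or fewer.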

Other observations

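A few sums outside the tested classes held Hox RNA. Heart barcodes with markers of glia and neurons numbered 2 to 6 in each of 5 matrices and held 92.1 to 296 CPM of Hox UMIs, from 3 to 13 Hox UMIs. Hoxc13, which held at most 0.479 CPM in the embryo classes, held 4 and 3 UMIs in epicardial barcodes at E14.5, and Hoxb1 held 4 and 2 there.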
